A study of Mus musculus with 6 samples.

Results

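Acetylated histone H3 (H3ac) at 9 genes of the TGF-beta pathway was measured in mouse mesenchymal stem cells (MSCs) from young and old mice. The genes were the ligands Tgfb1, Tgfb2 and Tgfb3, the receptors Tgfbr1 and Tgfbr2, the signal carriers and brakes Smad3 and Smad7, and the transcriptional repressors Ski and Skil. Every region of the H3ac table that overlapped one of these gene bodies extended by 5 kb on both sides was taken, which gave 16 of the 24431 regions. Of these, 11 lay within 1 kb of a start site of the member gene and are called promoter regions, and 5 are called other regions. H3ac was profiled by CUT&RUN, in which an antibody tethers a nuclease to marked chromatin and the released DNA is sequenced. The libraries fell into 3 groups of 2, and the cells of each group grew at 2% oxygen in αMEM with 10% FBS and 1% penicillin and streptomycin. The Young group was untreated cells of 3- to 5-month-old mice. The Old group was untreated cells of animals aged 18 to 22 months, and the OldAcetate group was cells of that same age range kept for 3 days with 5 mM sodium acetate. The labels name neither the strain nor the tissue of origin, and they do not say whether the libraries of a group came from separate mice, so p-values measure only the spread between these libraries.

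TGF-beta ligands are secreted in a latent form, and once released they bind the type II receptor, which recruits and activates the type I receptor. The active receptor phosphorylates Smad2 and Smad3, which enter the nucleus with Smad4 and switch genes on or off. Smad7 blocks the receptor, Ski and Skil repress Smad-bound genes in the nucleus, and the pathway steers proliferation, matrix production and lineage choice in stromal cells. Histone acetylation marks active promoters and enhancers, and acetate can be turned into acetyl-CoA, the acetyl donor.

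With the values as deposited, H3ac at these genes was lower in Old than in Young. The summed signal of the 16 regions was 1504 ± 113 RPM for Young (SD, n = 2), where RPM is the reads of a region scaled to a fixed library total. It was 1088 ± 21.4 RPM for Old (SD, n = 2), or 72.3% of Young. For OldAcetate it was 1426 ± 24.3 RPM (SD, n = 2), or 131% of Old and 94.8% of Young. The whole table shifted in the same directions, since its median region stood at 78.2% of Young in the Old group, and in OldAcetate at 118% of Old and 92.7% of Young. Measured against that shared shift, no member region passed the test in any comparison. With the values taken as given, the broad domain of Ski and the 5′ promoter region of Smad3 passed as higher in OldAcetate than in Old, as did 0.311% of all regions. Neither passed when either OldAcetate library was left out.

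The libraries held from 2163351 to 3039481 reads, of which 45.9% to 49.9% lay in the table's regions in Old, 56.3% to 57.3% in OldAcetate and 57.8% to 64.8% in Young. This share moved with the groups in the same order as the signal at the member genes, and its part in the differences given below was not tested. Start-site regions were present for 12 of 12 stromal markers, 5 of 10 haematopoietic markers and 0 of 5 endothelial markers. Ptprc, Adgre1, Itgam and Cd3e, which mark blood cell types, were among those with no region, and Pecam1, Cdh5, Kdr, Tek and Emcn of endothelium had none either. Summed over the 5 haematopoietic regions present, among them Spi1, Csf1r, Cd68 and Klf1, the signal ran from 93.1 to 94.8 RPM in Young, 68.4 to 71.6 RPM in Old and 70.2 to 85.1 RPM in OldAcetate. The stromal sum ran from 755 to 838 RPM, 620.0 to 649.9 RPM and 783 to 811 RPM in the same groups. The part of the blood markers in the results was not tested.

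**Figure D1:**
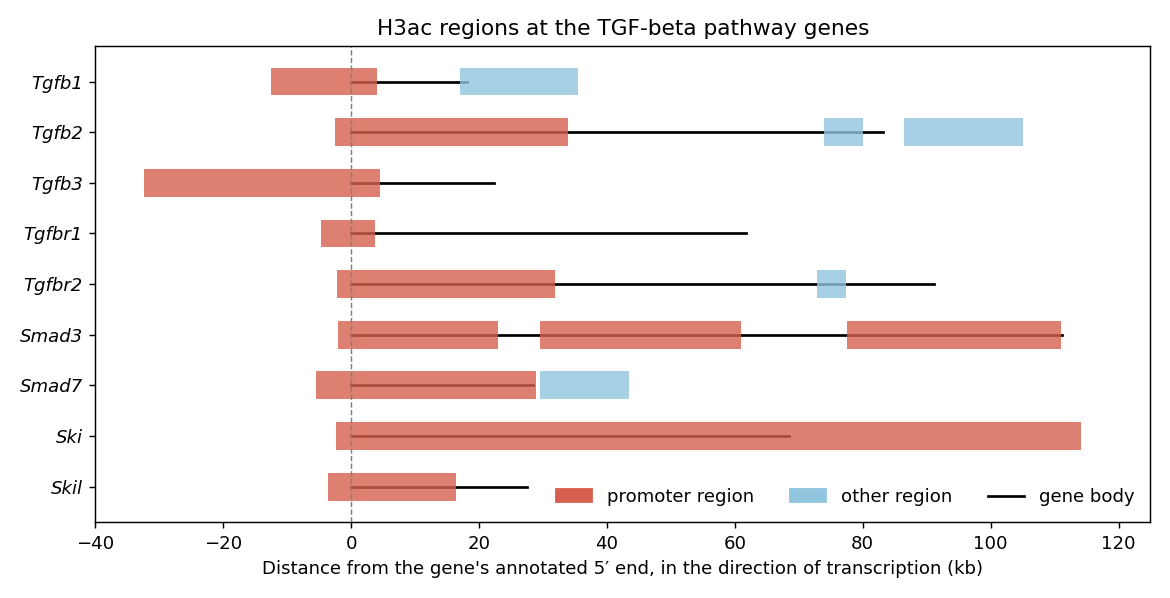
Position of the 16 regions at the 9 genes, as the distance in kb from the annotated 5′ end of each gene (dashed line at 0) in the direction of transcription. Bars are regions, promoter regions in red and other regions in blue, and black lines are gene bodies: the Ski region runs from 2.41 kb before to 114 kb after the 5′ end, while Tgfbr1 has a single region of 8.5 kb.

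The member regions were long. Their median length was 22500 bp, against 5500 bp for all regions, and 9 of 16 (56.25%) were at least 20 kb long, against 6.99% of all regions. The Ski region, chr4:155108501-155225000 (mm10), was 116.5 kb and the third longest of the table. It covered 100% of the Ski gene body, held 47982 bp outside it and overlapped 37005 bp of the neighbour Morn1. The Smad7 region also covered 100% of its gene body, whereas regions covered 79.1% of Smad3, 59.7% of Skil, 48.1% of Tgfb2, 39.9% of Tgfbr2, 28.1% of Tgfb1, 20.4% of Tgfb3 and 6.12% of Tgfbr1. Signal per kb placed the member regions between the 5.26th and the 87.7th percentile of all regions, with Skil highest and a Tgfb2 intragenic region lowest.

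Some member regions are shared with neighbouring genes. The Tgfb1 promoter region, chr7:25674501-25691000, also held the start sites of B9d2 and Tmem91. The region at the Tgfb1 3′ end, chr7:25704001-25722500, held the start site of Ccdc97 and overlapped the last 2 annotated exons of Tgfb1. The Tgfb3 region, chr12:86074501-86111500, lay mostly upstream of Tgfb3, held the start site of Ift43 and covered 28960 bp of that gene. CUT&RUN reads were not assigned to a strand, so signal of Tgfb1 or Tgfb3 and of these neighbours cannot be told apart. Each region name carries a code of Y, O and AC, which the labels do not define. The name of the intronic Tgfbr2 region, chr9:116098001-116102500, carried AC and Y alone, and the names of the other 15 regions carried all of them.

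The promoter windows below, from 250 bases before to 50 bases after the RefSeq start site, show the DNA under the promoter regions of 5 members (RefSeq, GRCm38.p6). They are shown because 4 of these genes hold 6 of the 9 regions called lower in Old, and Tgfbr2 holds the promoter region with the smallest difference. Capitals mark 2 of 4 motifs searched on both strands, the Smad-binding element core CAGAC and the GC-rich Smad motif GGCGC, where matches of the same motif on opposite strands may overlap. Tgfb1 is from chr7:25686752-25687051 on the plus strand, Tgfb2 from chr1:186705940-186706239 on the minus strand, Tgfbr2 from chr9:116175314-116175613 on the minus strand, Smad3 from chr9:63757945-63758244 on the minus strand and Ski from chr4:155222486-155222785 on the minus strand.
Tgfb1: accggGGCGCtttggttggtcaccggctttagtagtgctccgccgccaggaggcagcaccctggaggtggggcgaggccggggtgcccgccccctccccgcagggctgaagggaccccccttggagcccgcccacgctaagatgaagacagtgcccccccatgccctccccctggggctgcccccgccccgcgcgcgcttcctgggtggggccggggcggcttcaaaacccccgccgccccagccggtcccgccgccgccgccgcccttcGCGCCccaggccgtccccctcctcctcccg
Tgfb2: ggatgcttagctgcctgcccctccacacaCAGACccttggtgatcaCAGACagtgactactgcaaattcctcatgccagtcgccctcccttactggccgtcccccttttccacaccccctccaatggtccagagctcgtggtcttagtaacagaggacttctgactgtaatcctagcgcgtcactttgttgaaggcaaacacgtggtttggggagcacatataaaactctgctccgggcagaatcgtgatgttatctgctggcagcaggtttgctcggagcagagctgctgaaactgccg
Tgfbr2: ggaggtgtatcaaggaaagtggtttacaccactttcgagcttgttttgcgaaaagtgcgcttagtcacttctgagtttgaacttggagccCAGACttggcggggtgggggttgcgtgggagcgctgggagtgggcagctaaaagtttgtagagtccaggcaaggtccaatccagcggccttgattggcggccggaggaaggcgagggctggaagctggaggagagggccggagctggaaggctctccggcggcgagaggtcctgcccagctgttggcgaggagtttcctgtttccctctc
Smad3: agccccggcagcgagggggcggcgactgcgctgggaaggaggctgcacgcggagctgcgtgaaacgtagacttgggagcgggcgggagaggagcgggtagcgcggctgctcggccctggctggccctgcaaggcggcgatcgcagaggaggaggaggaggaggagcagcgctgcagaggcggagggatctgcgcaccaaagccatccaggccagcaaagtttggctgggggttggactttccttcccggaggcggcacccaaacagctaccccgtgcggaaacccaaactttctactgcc
Ski: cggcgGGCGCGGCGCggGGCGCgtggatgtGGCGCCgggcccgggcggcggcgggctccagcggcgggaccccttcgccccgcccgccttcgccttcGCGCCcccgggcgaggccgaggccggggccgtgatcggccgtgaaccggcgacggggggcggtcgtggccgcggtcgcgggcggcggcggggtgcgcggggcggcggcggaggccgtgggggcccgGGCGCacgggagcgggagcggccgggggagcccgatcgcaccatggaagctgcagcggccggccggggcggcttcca

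CAGAC had 2 matches in the Tgfb2 window and 1 in the Tgfbr2 window, and GGCGC had 7 matches in the Ski window and 2 in the Tgfb1 window. The Smad3 window held no match to any of the 4 motifs. In Tgfbr1, whose window is not printed, GGCGC had 3 matches. The palindrome GTCTAGAC and the AP-1 motif TGANTCA were not found in the 6 members with a window in the table. Of the 32851 windows of the RefSeq table, 49.6% held CAGAC, 36.9% GGCGC, 7.81% TGANTCA and 0.213% GTCTAGAC. The Ski window was 85.3% G and C with 59 CpG dinucleotides, against 54.3% and 10 in Tgfb2. These matches are a description of letters and not of bound sites. Windows of Tgfb3, Smad7 and Skil were not analysed here.

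Tgfb1 encodes a ligand made by many cell types, which is stored in the matrix and acts on stromal and immune cells. Its promoter region measured 68.4 and 53.9 RPM in Young, 47.1 and 38.2 RPM in Old, and 59.1 and 64.2 RPM in OldAcetate. Both Old libraries lay below all others, and the OldAcetate libraries fell inside the Young range. With the values as given, Old vs Young was -0.51 (log2, SE 0.16, adjusted p = 0.0334, limma) and OldAcetate vs Old was 0.53 (SE 0.16, adjusted p = 0.0930). The region at the 3′ end of the gene, with the Ccdc97 start site, measured 66.5 and 59.6 RPM in Young, 44.4 and 50.1 RPM in Old, and 56.1 and 51.3 RPM in OldAcetate. There OldAcetate lay between the other groups, with OldAcetate vs Old at 0.18 (SE 0.16, adjusted p = 0.530).

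Tgfb2 encodes a ligand with roles in the development of heart and skeleton. Its promoter region, chr1:186672001-186708500, spans the start site, the first exon and 32062 bp of intron, and it measured 121 and 100.9 RPM in Young, 79.5 and 83.1 RPM in Old, and 100.8 and 109 RPM in OldAcetate. Old was lower as given (-0.44, SE 0.13, adjusted p = 0.0285), and the OldAcetate libraries overlapped Young. An intragenic region around exons 5 and 6 held 17 to 47 reads per library, where counting error alone was 14.6% to 24.3%, and its groups overlapped in Old vs Young. A region beyond the 3′ end measured 56.3 and 48.6 RPM in Young, 45.3 and 32.2 RPM in Old, and 39.7 and 43.4 RPM in OldAcetate, so that OldAcetate stayed below Young and overlapped Old. It was the member region with the smallest OldAcetate vs Old difference as given (0.12, SE 0.17, adjusted p = 0.728).

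Tgfb3 encodes a ligand known for its part in palate closure and wound repair. Its region measured 131 and 125.4 RPM in Young, 96.6 and 76.8 RPM in Old, and 105 and 113 RPM in OldAcetate. The groups did not overlap, with Old lowest and Young highest. As given, Old vs Young was -0.57 (SE 0.13, adjusted p = 0.00927), which placed Old at 67.6% of Young by group means. Relative to all regions it was -0.22 (SE 0.10), with an adjusted p of 0.894 (limma), and it was the only member region with an unadjusted p under 0.05 in that comparison.

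Tgfbr1 encodes the type I receptor kinase and Tgfbr2 the type II receptor that activates it. The Tgfbr1 region, chr4:47348501-47357000, measured 31.6 and 24.5 RPM in Young, 17.1 and 25.1 RPM in Old, and 32.3 and 27.9 RPM in OldAcetate. Young and Old overlapped there, the only promoter region of the 11 where they did, and OldAcetate lay above both Old libraries. With 37 to 96 reads per library, counting error was 10.2% to 16.4%, and none of the 3 comparisons passed the test as given (adjusted p from 0.147 to 0.967). The Tgfbr2 promoter region, chr9:116143501-116177500, measured 121 and 101.3 RPM in Young, 94.3 and 87.9 RPM in Old, and 109 and 103 RPM in OldAcetate. Its Old vs Young difference as given, -0.28 (SE 0.13, adjusted p = 0.1295), was the smallest of the promoter regions, and relative to all regions it was 0.07 (SE 0.10). The intronic Tgfbr2 region held 17 to 33 reads per library and measured 9.87 and 13.5 RPM in Young, 7.86 and 7.56 RPM in Old, and 9.74 and 9.18 RPM in OldAcetate, with no test passed.

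Smad3 encodes the receptor-activated Smad that binds DNA directly. It had 3 promoter regions, 1 at the annotated 5′ end (chr9:63735001-63760000) and 2 at internal start sites of shorter transcripts (chr9:63697001-63728500 and chr9:63647001-63680500). The region at the 5′ end measured 80.6 and 82.1 RPM in Young, 55.01 and 54.88 RPM in Old, and 91.7 and 84.3 RPM in OldAcetate. Here both OldAcetate libraries lay above both Young libraries, and both Old libraries far below. As given, Old vs Young was -0.56 (SE 0.14, adjusted p = 0.0143) and OldAcetate vs Old was 0.67 (SE 0.14, adjusted p = 0.0222), the widest rise of the 16 regions and 160.1% of Old by group means. Against the shared shift of all regions, OldAcetate vs Old was 0.43 (95% confidence interval 0.21 to 0.66, adjusted p = 0.375, limma).

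The middle Smad3 region measured 92.1 and 89.5 RPM in Young, 68.0 and 56.1 RPM in Old, and 72.9 and 83.4 RPM in OldAcetate. The 3′ region measured 110.2 and 93.5 RPM in Young, 69.8 and 78.0 RPM in Old, and 94.1 and 83.002 RPM in OldAcetate. Both were lower in Old than in Young as given (-0.55 and -0.46, SE 0.14 each, adjusted p = 0.0149 and 0.0288), and their OldAcetate vs Old differences of 0.33 and 0.26 did not pass the test (adjusted p = 0.209 and 0.304).

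Smad7 encodes the inhibitory Smad that the pathway itself induces. Its promoter region runs from 5.53 kb before the 5′ end to just past the 3′ end and measured 133 and 131 RPM in Young, 96.6 and 90.3 RPM in Old, and 133 and 123 RPM in OldAcetate. Old libraries were lowest, and OldAcetate overlapped Young. As given, Old vs Young was -0.49 (SE 0.13, adjusted p = 0.0139) and OldAcetate vs Old 0.45 (SE 0.13, adjusted p = 0.0683). The region downstream of the gene measured 44.7 and 38.8 RPM in Young, 29.1 and 25.9 RPM in Old, and 34.6 and 38.8 RPM in OldAcetate, with Old vs Young at -0.59 (SE 0.18, adjusted p = 0.0313). It was the only one of the 5 other regions that passed.

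Ski encodes a co-repressor of Smad complexes, and its domain had the highest summed signal of the set. It measured 421 and 387 RPM in Young, 283 and 299.9 RPM in Old, and 405 and 378 RPM in OldAcetate. The Old libraries lay far below the others, while OldAcetate overlapped Young. As given, Old vs Young was -0.47 (SE 0.09, adjusted p = 0.00427) and OldAcetate vs Old was 0.42 (SE 0.09, adjusted p = 0.0222), with OldAcetate vs Young at -0.05 (95% confidence interval -0.22 to 0.13). With 613 to 1279 reads per library the Ski domain was the most precise of the 16 regions. Its OldAcetate vs Old difference no longer passed when any single Old or OldAcetate library was left out. Against the shift of all regions the differences were -0.12 (SE 0.06, adjusted p = 0.894) and 0.18 (SE 0.06, adjusted p = 0.658), and under quantile normalization both passed the test.

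Skil encodes SnoN, the relative of Ski that TGF-beta signalling first degrades and then induces. Its region, chr3:31091501-31111500, measured 81.3 and 68.2 RPM in Young, 57.8 and 58.1 RPM in Old, and 87.4 and 82.6 RPM in OldAcetate. OldAcetate lay above both Young libraries, as it did in the Smad3 5′ region and in no other member region. As given, Old vs Young was -0.36 (SE 0.15, adjusted p = 0.0840), OldAcetate vs Old 0.55 (SE 0.15, adjusted p = 0.0561) and OldAcetate vs Young 0.19 (SE 0.15, adjusted p = 0.884). None of these passed the test.

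**Figure D2:**
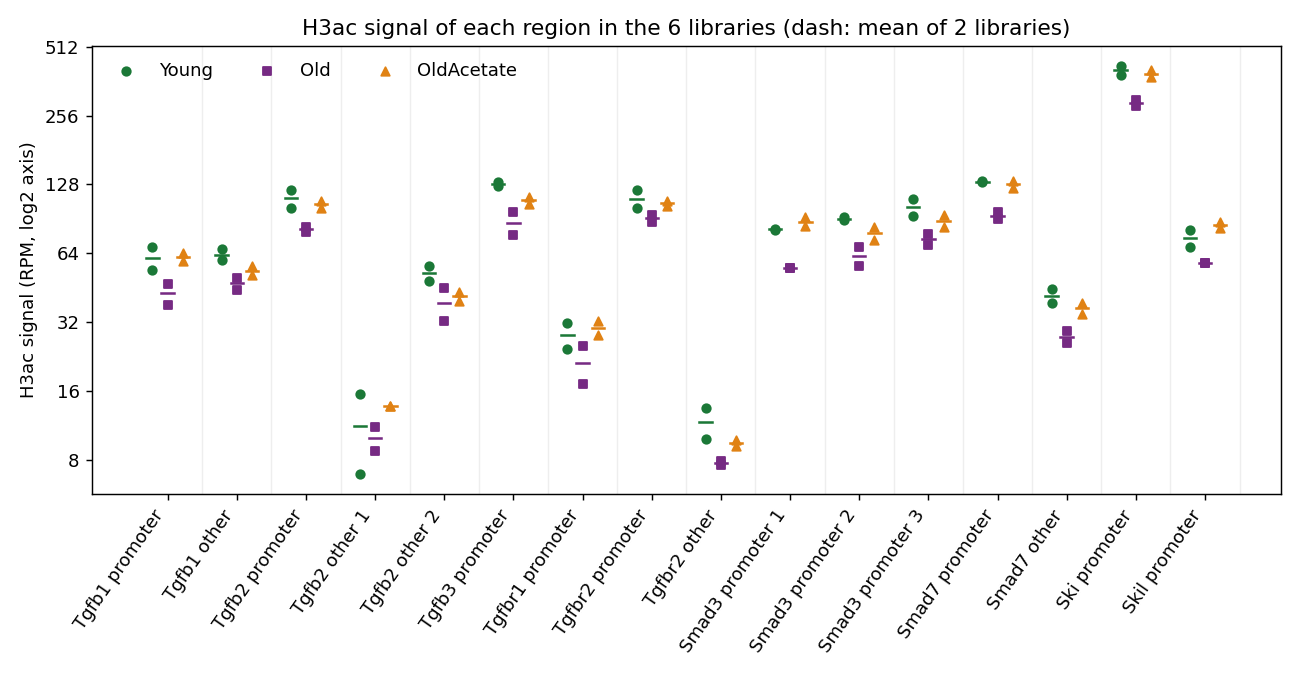
H3ac signal in RPM (log2 axis) of the 16 regions in each of the 6 libraries, with circles for Young, squares for Old, triangles for OldAcetate and a dash at the mean of 2 libraries. Old libraries lie below both Young libraries in 14 of 16 regions, and OldAcetate libraries lie above both Old libraries in 15 of 16.

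Over the members, 9 of 16 regions were called lower in Old vs Young with the values as given, against 9.5% of all regions, and 0 were called higher. The 9 were the promoter regions of Tgfb1, Tgfb2, Tgfb3, Smad7 and Ski, the 3 regions of Smad3 and the region downstream of Smad7. Long regions hold more reads, and of all regions of at least 20 kb 36.1% were called lower, against 7 of the 9 member regions of that length. Old libraries lay below both Young libraries in 14 of 16 member regions, against 60.2% of all regions and 85.6% of regions of at least 20 kb. The median difference of the members was -0.46, and that of all regions was -0.35. Ski was still called whichever Young or Old library was left out. It was the only member called without Young replicate 1, where 9 of all regions were called lower and the members' median was -0.34, and without Old replicate 2, where 490 of all regions were called lower and the median was -0.46. Without Old replicate 1, 8 members were called, 7 of them among the 9, and without Young replicate 2 there were 11, with 3248 and 2124 of all regions called lower, against 2320 with all libraries. None of the members, and 19 of all regions, were called lower when limma's variance estimate used neither the trend nor the robust option.

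Between OldAcetate and Old, the Ski domain and the Smad3 5′ region made 2 of 16 called higher with the values as given, against 0.311% of all regions and 1.11% of regions of at least 20 kb. Both OldAcetate libraries lay above both Old libraries in 15 of 16 member regions, against 47.1% of all regions and 75.2% of regions of at least 20 kb. The members' median difference was 0.39 against 0.24 for all regions. Without either OldAcetate replicate 0 of all regions was called higher, members included. Without Old replicate 1 the Smad3 region and the Tgfb1 promoter region were called, with 441 of all regions, and without Old replicate 2 the Smad3 region alone, with 103 of all regions, against 76 with all libraries. edgeR on the recovered reads without scaling factors called 1 member, the Smad3 region, among 21 of all regions, and limma with neither the trend nor the robust option called no member and 7 of all regions.

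OldAcetate vs Young showed no called region with the values as given, among the members or in the table (0% of all regions). OldAcetate libraries lay below both Young libraries in 6 of 16 member regions, against 29.8% of all regions, and above them in 2, against 7.6%. The 6 were the Tgfb3 region, the middle Smad3 region and the other regions of Tgfb1, Tgfbr2 and Smad7 with the downstream region of Tgfb2. The median difference was -0.07 in the members and -0.11 in all regions, and the members' value became -0.17 when Young replicate 2 was left out and -0.0072 when Young replicate 1 was.

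**Figure D3:**
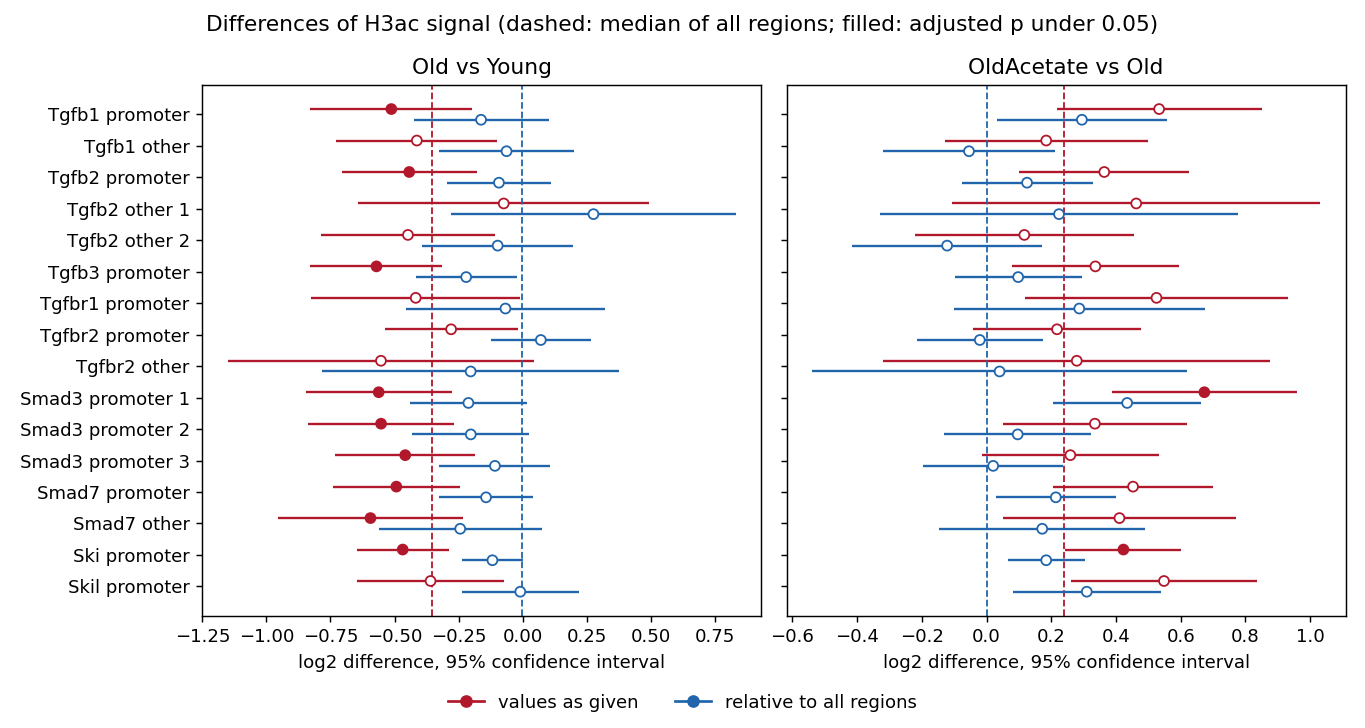
Log2 differences of the 16 regions in Old vs Young (left) and OldAcetate vs Old (right) with 95% confidence intervals, for the values as given (red) and relative to all regions (blue). Filled points had an adjusted p under 0.05, which was so for 9 regions on the left and 2 on the right, all with the values as given, and dashed lines mark the median of all regions.

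Relative to all regions, after each library was centred so that the typical region did not change, limma called 0 of 16 member regions in each comparison. Of all regions it called 0.00819% between Old and Young and 0% in each of the comparisons with OldAcetate. Member regions with an unadjusted p under 0.05 numbered 1 for Old vs Young (Tgfb3), 5 for OldAcetate vs Old and 1 for OldAcetate vs Young (Skil, 0.30, SE 0.11), and edgeR with RLE factors on the recovered reads called 0 each time. Of all regions 5.54%, 6.24% and 5.08% had such a p in the same comparisons, so 1 of 16 (6.25%) was near the share of the table. The 5 member regions of OldAcetate vs Old were the promoter regions of Tgfb1 (0.29, SE 0.13), Smad7 (0.21, SE 0.09), Ski and Skil (0.31, SE 0.11) and the Smad3 5′ region. For Old vs Young the members had a median of -0.11, with 14 of 16 below 0, against 12407 of all 24431 regions. For OldAcetate vs Old the members' median was 0.15, with 13 of 16 above 0. Above 0 there were 12283 of all regions and 6653 of the 11165 start-site regions. For OldAcetate vs Young the members' median was 0.04 with scaling by the median, which turned to -0.02 under quantile normalization. Each pair of comparisons shares a group of libraries. Reads in the 16 regions made up 0.244% and 0.246% of all region reads of the Young libraries (95% Wilson intervals 0.237% to 0.251% and 0.238% to 0.255%), and these regions covered 0.226% of the region length. The Old libraries had 0.221% and 0.234% (0.212% to 0.230% and 0.225% to 0.243%), and the OldAcetate libraries 0.252% and 0.250% (0.244% to 0.260% and 0.242% to 0.259%). Old was lowest and OldAcetate highest, and each of the 3 exact two-sided permutation tests gave p = 0.333, the smallest that 2 libraries against 2 can give (0.4 after Benjamini-Hochberg adjustment).

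Summed over its regions, each of the 9 genes was lower in Old than in Young, at 67.6% (Tgfb3) to 80.5% (Tgfbr2) of Young, and higher in OldAcetate than in Old, at 117% (Tgfbr2) to 147% (Skil) of Old. The Old and Young ranges did not overlap in 8 of the 9 genes, Tgfbr1 being the exception, and the OldAcetate and Old ranges did not overlap in any gene. Of single regions of at least 20 kb in the whole table, 85.6% and 75.2% had groups apart in these directions. Of all 24431 regions, 22513 had a difference below 0 in Old vs Young and 20332 above 0 in OldAcetate vs Old, with the values as given. For these comparisons the exact permutation p was 0.333 in every gene except Tgfbr1 in Old vs Young (0.667), and adjusted over 27 tests these became 0.429 and 0.692. OldAcetate against Young ran from 84.99% in Tgfb3 to 114% in Skil. Per kb of region, Skil had the highest group mean in each group (3.74 RPM per kb for Young, 2.90 for Old and 4.25 for OldAcetate). In OldAcetate its libraries, 4.13 and 4.37 RPM per kb, did not overlap the next gene, Tgfbr1 (3.29 and 3.80). In Young and Old its libraries overlapped those of Tgfbr1, at 2.88 and 3.72 RPM per kb in Young and 2.01 and 2.95 RPM per kb in Old. Tgfb2 and Smad3 were the lowest pair in each group, with means of 2.87 and 3.04 RPM per kb for Young, 2.13 and 2.12 for Old, and 2.62 and 2.83 for OldAcetate. Their libraries overlapped in the Young and Old groups and not in OldAcetate.

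The promoter region of a gene can be set against another region of the same gene in the same library. Scaling a library by a single factor does not change this ratio. This comparison was chosen after the values were seen. The Smad3 5′ region relative to the 3′ region, per kb, was 0.980 and 1.18 for the Young libraries, 1.06 and 0.943 for the Old libraries and 1.31 and 1.36 for the OldAcetate libraries. Relative to the middle region it was 1.10 and 1.16 for the Young libraries, 1.02 and 1.23 for the Old libraries and 1.59 and 1.27 for the OldAcetate libraries. In both, OldAcetate lay above the other 4 libraries, by 0.42 and 0.34 on the log2 scale over Old. The exact permutation p was 0.333 for both, the smallest possible, and 1 after adjustment over 21 such tests.

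For the other ratios none of the 3 comparisons had an adjusted p below 1 either. The Tgfb1 promoter region relative to its 3′ region was 1.15 and 1.01 for the Young libraries, 1.19 and 0.854 for the Old libraries and 1.18 and 1.404 for the OldAcetate libraries, with OldAcetate above Young and overlapping Old. The Tgfb2 promoter region relative to its downstream region was 1.09 and 1.05 for the Young libraries, 0.890 and 1.31 for the Old libraries and 1.29 and 1.27 for the OldAcetate libraries. Relative to the intragenic Tgfb2 region, which held 17 to 47 reads, it was 1.29 and 2.39 for the Young libraries, 1.18 and 1.56 for the Old libraries and 1.203 and 1.3001 for the OldAcetate libraries, so that OldAcetate had a lower mean than Young there and a higher one in the former ratio. Smad7 had overlapping groups in each comparison, and in Tgfbr2 OldAcetate lay slightly below Old (1.47 and 1.49 against 1.59 and 1.54). Taking the median of promoter regions minus the median of other regions in each library, Old minus Young was 0.12, OldAcetate minus Old -0.13 and OldAcetate minus Young -0.01, against a pooled replicate SD of 0.18 (exact permutation p = 1, 0.667 and 1). All of these changed sign when single libraries were left out.

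**Figure D4:**
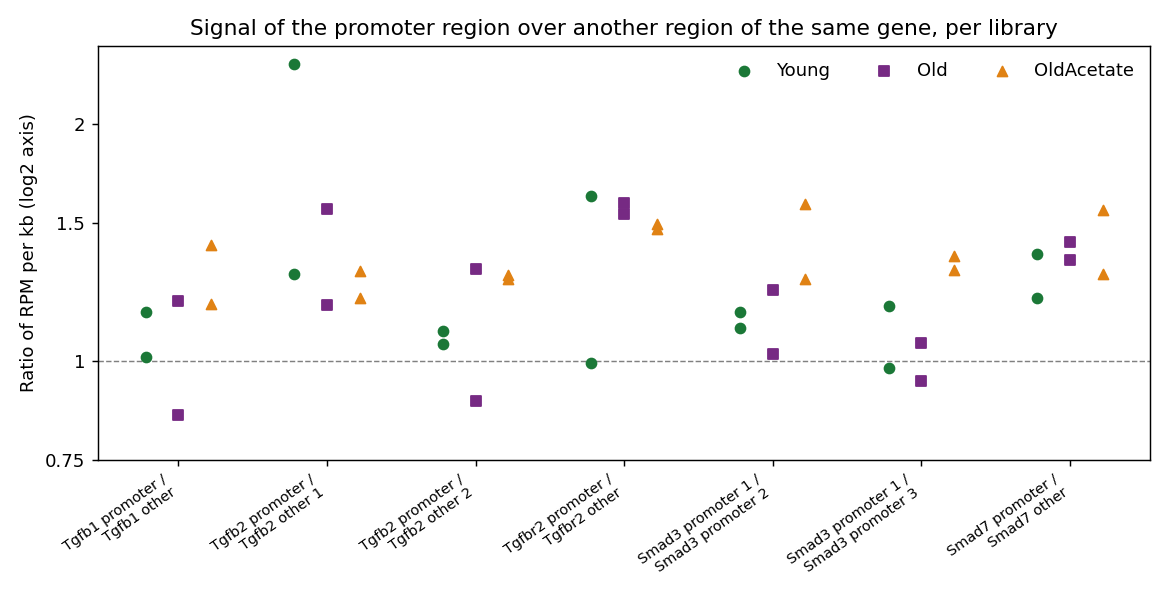
Ratio of RPM per kb (log2 axis) between the promoter region and another region of the same gene in each of the 6 libraries, for 7 pairs of regions, with circles for Young, squares for Old and triangles for OldAcetate. In both Smad3 pairs the OldAcetate libraries, from 1.27 to 1.59, lie above the other 4.

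The rest of the pathway was read at start-site regions of 63 genes, of which 62 had at least 1 region and Mstn had none, which gave 71 regions. Relative to all regions, limma called 0 of these 71 in each comparison. With an unadjusted p under 0.05 there were 2 lower and 2 higher for Old vs Young, 4 lower and 5 higher for OldAcetate vs Old, and 3 lower and 6 higher for OldAcetate vs Young, while 5.05%, 6.01% and 4.66% of all start-site regions had such a p. With the values as given, 18 of 71 were called lower in Old vs Young, against 11.5% of all start-site regions. Most of these 18 were at least 20 kb long, and of all regions of that length 36.1% were called lower. The 18 included 8 of 16 regions of TGF-beta targets, among them Fn1 (fibronectin, -0.61), Tgfbi (-0.42), Col1a1 (-0.43) and Junb (-0.44), with Snai1, Cdkn2b and Bhlhe40. Of 16 regions of the latency and activation list, 5 were called, at Lrrc32, whose product tethers latent TGF-beta to the cell surface, at the matrix proteins Ltbp2 and Ltbp4, at the protease gene Mmp14 and at the proteoglycan gene Bgn. Of 8 regions of related receptors, 3 were called (Acvrl1, Acvr1b and Acvr2a), and of 15 of brakes and ubiquitin ligases 2 (Tgif1 and Pmepa1). None of 11 regions of Smads and partners and none of 5 of activin ligands and binders was called. In OldAcetate vs Old 0 of 71 was called higher, against 0.511% of start-site regions.

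Relative to all regions, the list medians in OldAcetate vs Old ran from -0.12 (related receptors) to 0.11 (targets), against 0.05 for all start-site regions and 0.18 for the 11 member promoter regions. In Old vs Young they ran from -0.08 (targets) to 0.14 (activin ligands and binders), against -0.01 for all start-site regions and -0.12 for the member promoter regions. The lowest p values of the lists in Old vs Young were those of an internal Ltbp2 start site (0.58, SE 0.22, adjusted p = 0.852) and of Bhlhe40 (-0.26, SE 0.11, adjusted p = 0.855). In OldAcetate vs Old they were those of Acvrl1, a type I receptor (0.71, SE 0.24, adjusted p = 0.658), and of Dcn, the proteoglycan decorin that binds TGF-beta (-0.57, SE 0.23, adjusted p = 0.736). In OldAcetate vs Young they were those of a Runx1 region (0.35, SE 0.12) and Thbs1 (0.33, SE 0.12), each with an adjusted p of 0.964.

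**Figure D5:**
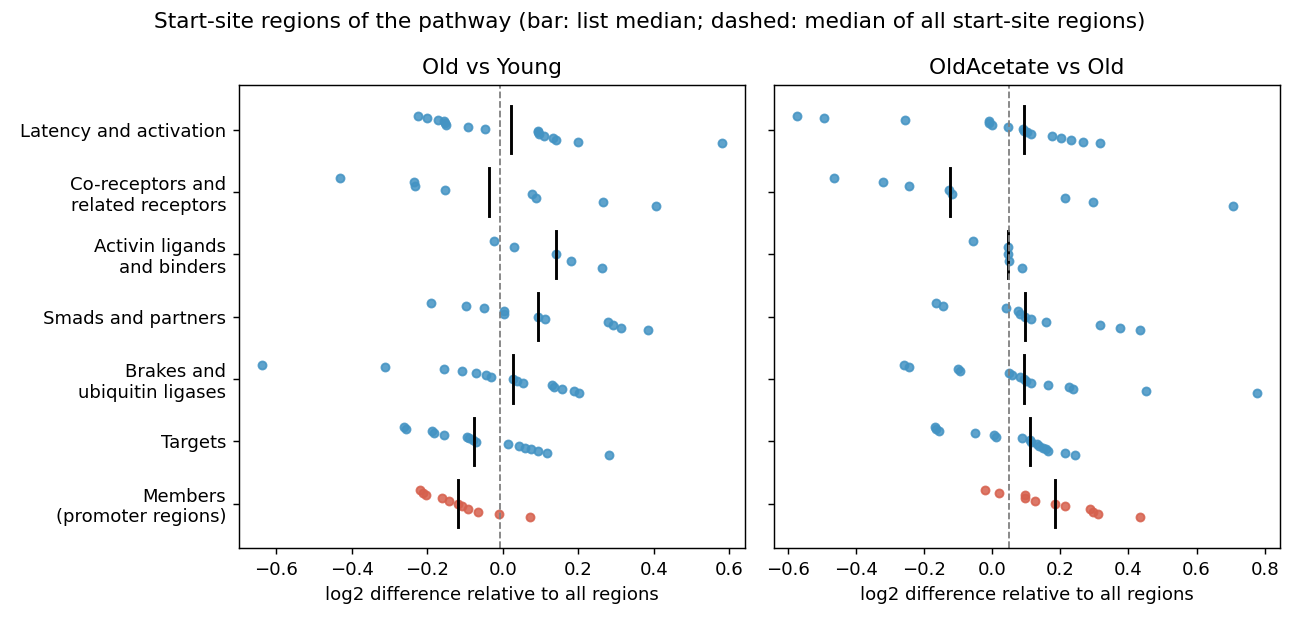
Log2 differences relative to all regions at 71 start-site regions of 6 pathway lists (blue) and at the 11 member promoter regions (red), in Old vs Young and OldAcetate vs Old. Black bars are list medians and dashed lines the median of all start-site regions: the member median is -0.12 on the left and 0.18 on the right, with single regions of most lists on both sides of 0.

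The start-site regions whose 6-library pattern was most like the mean pattern of the member promoter regions, out of 6710 at or above the median level, were those of Id3 (Pearson r = 0.991), Ciao2b (0.988) and Dlat (0.987). An r of at least 0.9 was reached by 134 of these regions, or 2.00%. The values are centred and share libraries and depth, so this is a description of likeness over 6 libraries.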

How the data were processed

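Mouse MSC cultures were profiled by H3ac CUT&RUN, 2 libraries in each of 3 groups taken from the labels. The authors deposited RPM, the reads of each region scaled to the library total, in 1 table of jointly called regions, which its name calls RPKM although values were not divided by length. In 100% of values the RPM were whole multiples of a step (tolerance 0.01), so whole reads and library totals were recovered. The submitters' processing notes name Bowtie2, Picard and mm10, and yeast DNA was in the stop buffer, its use for scaling not being stated. Regions were annotated with GENCODE M21. Differences were tested with limma 3.58.1 (R 4.3.3) on log2(RPM + 0.5) over all 24431 regions and 6 libraries, as given and with each library centred on the median deviation from region means, with eBayes trend and robust, Benjamini-Hochberg adjustment over all regions and a threshold of 0.05. Differences understate changes of low regions. Single values were tested by exact two-sided permutation. edgeR 4.0.16 was run on recovered reads. The centred limma fit and edgeR with RLE factors were run on simulated data, and the fit of the values as given was not. The 9 genes and the lists were chosen with earlier results of these data known. All 9 are named, with the called regions of the lists or the 2 lowest p per comparison. Some list genes are counted in their lists but not reported here by name. Wilson intervals and counting errors cover counting error only, and limma's intervals the spread between libraries. Over all regions of the centred values, differences between replicates 1 and 2 were not correlated between groups (r from -0.04 to 0.01). Centring removes a shift of a whole library, so this cannot show whether the replicate numbers pair. Replicate 1 had the larger share of reads in regions in each group.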

Additional observations from a re-analysis of the deposited data

How the results depend on the processing

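Relative to all regions, the count of called members stayed at 0 of 16 in each comparison under pseudocounts of 0.1 and 1, without the lowest 25% of regions, with the replicate block, with only the compared libraries, with eBayes without trend and robust, with edgeR and RLE factors, with the gene body not extended or extended by 20 kb, and without each library. For Old vs Young it was 9 without scaling, 9 with edgeR without factors and 1 (Ski) under quantile normalization, and for OldAcetate vs Old it was 2, 1 and 1 (Ski). Of all 24431 regions, 2320, 2517 and 2 were called lower in Old vs Young, and 76, 21 and 2 higher in OldAcetate vs Old. The median then moved to -0.46 and -0.47 for Old vs Young and to 0.39 and 0.39 for OldAcetate vs Old, without scaling and with edgeR without factors. For OldAcetate vs Young it reversed to -0.070, -0.082 and, under quantile normalization, -0.019. Without single libraries these medians ran from -0.17 to -0.073 for Old vs Young and from 0.088 to 0.18 for OldAcetate vs Old. With the values as given, whose alternatives for the counts were chosen after seeing the data, the 9 calls of Old vs Young became 5 with only the compared libraries, 0 with eBayes without trend and robust and 1 to 11 without single libraries. The 2 calls of OldAcetate vs Old became 4 with only the compared libraries, 0 with eBayes without trend and robust, 1 with edgeR and 0 to 2 without single libraries. The replicate block gave 10 and 4 calls as given (Tgfb1 other, and Skil and Smad7 promoters, were added) and changed no other member count. Whether the replicate numbers pair the libraries could not be told from the centred values. The medians as given ran from -0.56 to -0.34 for Old vs Young, 0.33 to 0.43 for OldAcetate vs Old and -0.17 to -0.0072 for OldAcetate vs Young without single libraries. The promoter minus other difference ran from -0.028 to 0.28, -0.29 to 0.030 and -0.17 to 0.15 in the same order, changing sign each time. Log2 ratios of gene sums for OldAcetate vs Young also changed sign, running from -0.23 to 0.023 in Tgfb1, -0.27 to 0.034 in Tgfb2, -0.069 to 0.30 in Tgfbr1, -0.18 to 0.0084 in Tgfbr2 and -0.11 to 0.016 in Ski. The cause of these changes was not tested. Of 362 alternative values, 319 were classed as the same. A count was so classed if it equalled the main count or lay within a fixed factor of it. Medians had to move by less than the replicate spread, and the remaining values had to keep their sign. Depth limited the Tgfbr2 intronic and Tgfb2 intragenic regions most, with counting errors of up to 24.3%.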
